A study of Mus musculus with 6 samples.

Results

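The genes of the cytosolic ribosomal proteins were followed in injured mouse kidneys given m4PTB or vehicle. Members were taken by gene symbol, as symbols that start with Rpl or Rps followed by a digit, a or p, leaving out the kinase genes (Rps6k) and annotated pseudogenes. This gave 86 genes, of which 85 passed the filter on dim probe sets among 18214 genes tested. They comprised 33 genes of the small subunit, 51 of the large subunit and Rps19bp1, which the symbol rule takes in although its product, a binding partner of Rps19, is not part of the ribosome. The gene below the filter was Rpl39l, a germline copy of Rpl39, whose probe set lay between 3.67 and 4.15 on the 6 arrays, below the minimum log2 signal of 5.

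The kidneys came from male BALB/c mice aged 10 to 12 weeks. Every mouse had 1 kidney clamped for 26 min and then reperfused, and the opposite kidney removed, so both groups carried the injury and no uninjured kidney was analysed here. Treatment was given at 24 h after injury and the kidney was taken 12 h later, at day 1.5. The vehicle group (3 arrays) received 20% 2-(hydroxypropyl)-b-cyclodextrin in water, and the m4PTB group (3 arrays) received 100 mg of m4PTB per kg body weight. m4PTB is methyl 4-(phenylthio)butanoate, a compound known as an inhibitor of histone deacetylases. The submitters chose kidneys of a similar degree of injury by serum creatinine, blood urea nitrogen and Kim1 expression. Each value is the log2 signal of a probe set on an Affymetrix Mouse Gene 1.0 ST array, so a difference of 1 is a doubling. Signals of different probe sets are on scales of their own and are not set against each other.

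Ribosomal proteins coat and stabilise the ribosomal RNA of the small subunit, which reads the message, and of the large subunit, which joins amino acids. Nearly all are made in equal amounts from abundant mRNAs, many of which begin with a run of pyrimidines, the 5′ terminal oligopyrimidine (TOP) tract, through which mTORC1 controls their translation more than their abundance. In the kidney, tubular cells that survive ischaemia divide and rebuild within days of the injury, and cell growth draws on ribosome production.

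Promoter windows were read because the members varied together between arrays. RefSeq's promoter table for GRCm38.p6 held an entry for 65 of the members, 64 of them measured. The windows below run from 20 bases before to 20 bases after the annotated start, 5′ to 3′ on the gene's strand, and capitals mark a pyrimidine run of 8 or more bases that starts with C. They show the members with the smallest p (Rpl36a, Rps4x and Rpl14), followed by Rps6 and Rpl18 as members whose signals differed little or were lower with m4PTB and Rpl35 as the longest run shown.
Rpl36a (chrX:134585634-134585673, plus strand): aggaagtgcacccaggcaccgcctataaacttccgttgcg
Rps4x (chrX:102189372-102189411, minus strand): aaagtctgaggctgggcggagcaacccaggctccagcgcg
Rpl14 (chr9:120571497-120571536, plus strand): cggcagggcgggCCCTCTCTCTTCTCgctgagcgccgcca
Rps6 (chr4:86857348-86857387, minus strand): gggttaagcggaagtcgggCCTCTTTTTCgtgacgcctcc
Rpl18 (chr7:45718051-45718090, plus strand): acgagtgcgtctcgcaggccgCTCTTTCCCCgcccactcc
Rpl35 (chr2:39005112-39005151, minus strand): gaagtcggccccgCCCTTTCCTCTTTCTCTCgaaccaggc

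Such a run was found in 31 of 77 member promoters (40.3%) and in 13.2% of 16946 promoters of all genes tested. Some members had several promoters. Runs anywhere in the window were counted, also before the start, so they need not be TOP tracts, and shorter tracts were missed. The run was 14 bases long in Rpl14, 10 in Rps6, 10 in Rpl18 and 18 in Rpl35, and none of at least 8 bases was found in the windows of Rpl36a and Rps4x. The word CCGGAAG, which lies within the usual binding word of ETS-family factors, was found on either strand of 27 member promoters (35.1%) over their 250 bases before and 50 after the start, and in 13.5% of all. The E-box CACGTG, the word bound by MYC, was found in 10.4% of member promoters and 8.95% of all. CACGTG reads the same on both strands. Members with and without either of the other features had like differences between the groups. The median log2 difference was 0.040 in 30 members with a pyrimidine run and 0.043 in 34 without, and it was 0.041 in 25 members with CCGGAAG and 0.044 in 39 without. A match of letters is a description of the window and does not show a binding site.

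The tissue label was borne out by its markers, since 6 of 6 proximal tubule markers, 2 of 2 of the loop of Henle and 2 of 2 of the collecting duct had signals over the negative controls' 90th percentile on at least 3 arrays. Markers of neutrophils (0 of 3), T cells (0 of 3) and B cells (0 of 1) did not. Vehicle replicate 3 stood apart from the other arrays. Its median correlation with them was 0.987, against 0.994 to 0.996 for the rest. Its weight in limma's array weights was 0.242, against 0.834 to 2.46, and its negative controls had a median of 5.56, against 5.88 to 5.95. In whole-tissue RNA, fewer cells of a type and less RNA per cell cannot be told apart. The labels number the replicates without saying more of their source, so p-values measure a spread between samples that may be partly technical.

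The ribosomal protein genes as a group lay at nearly the same signal in m4PTB and vehicle kidneys. The mean signal over the 85 members was 10.736, 10.817 and 10.704 on vehicle replicates 1 to 3 and 10.869, 10.808 and 10.719 on m4PTB replicates 1 to 3. The groups overlapped, with means of 10.752 ± 0.058 and 10.799 ± 0.076 (SD, n = 3), and their difference was smaller than the pooled SD within groups of 0.067. The median log2 difference, m4PTB minus vehicle, was 0.044 over the members and 0.012 over all genes tested. It was 0.045 in the small subunit and 0.042 in the large subunit. With m4PTB the signal was higher for 62 of 85 members (72.9%), against 54.5% of all genes tested. Among 4726 other genes between the 10th and 90th percentiles of the members' signal, 63.6% were higher and the median was 0.030.

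The size of that small shift depended on single arrays. The median was 0.024 without vehicle replicate 3, with 52 of 85 members higher, and 0.007 without m4PTB replicate 1, with 46 higher. Without vehicle replicate 2 it was 0.071, with 71 members higher, and leaving out m4PTB replicate 3 gave 0.090, with 76 higher. Under cyclic loess it was 0.045, with 66 members higher and a median of 0.000 over all genes. Subtracting each array's median moves every gene's difference by the same amount, which put the median of all genes at -0.046 and that of the members at -0.013, with 37 of 85 above 0. The sign of differences this small therefore depends on where 0 is set.

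The members moved together from array to array within each group. On vehicle replicate 2, 79 of 85 members lay above their own vehicle mean (92.9%), and on vehicle replicate 3, 67 lay below it. On m4PTB replicate 1, 76 lay above their m4PTB mean (89.4%), and on m4PTB replicate 3, 74 lay below it. Among all genes the share above the group mean was between 47.4% and 53.1% on every array. Within the vehicle group 66 members peaked on replicate 2, and within the m4PTB group 61 members peaked on replicate 1 and 71 were lowest on replicate 3. Over all 6 arrays 55 members were highest on m4PTB replicate 1, while 41 were lowest on vehicle replicate 3 and 30 on m4PTB replicate 3. The arrays of each group ranked in the same order by the list means of TOP mRNA, cell division, erythroid and fibroblast genes. The erythroid and fibroblast lists held 3 measured genes each. Other lists did not keep this order in both groups, among them ribosome assembly, RNA polymerases I and III, translation initiation, snoRNAs, macrophage and endothelial genes. For the 20 cell division genes the list means were 8.03, 8.40 and 7.73 on the vehicle arrays and 8.93, 8.77 and 8.52 on the m4PTB arrays. The part of these genes or of vehicle replicate 3's quality in the members' order was not tested.

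**Figure D1:**
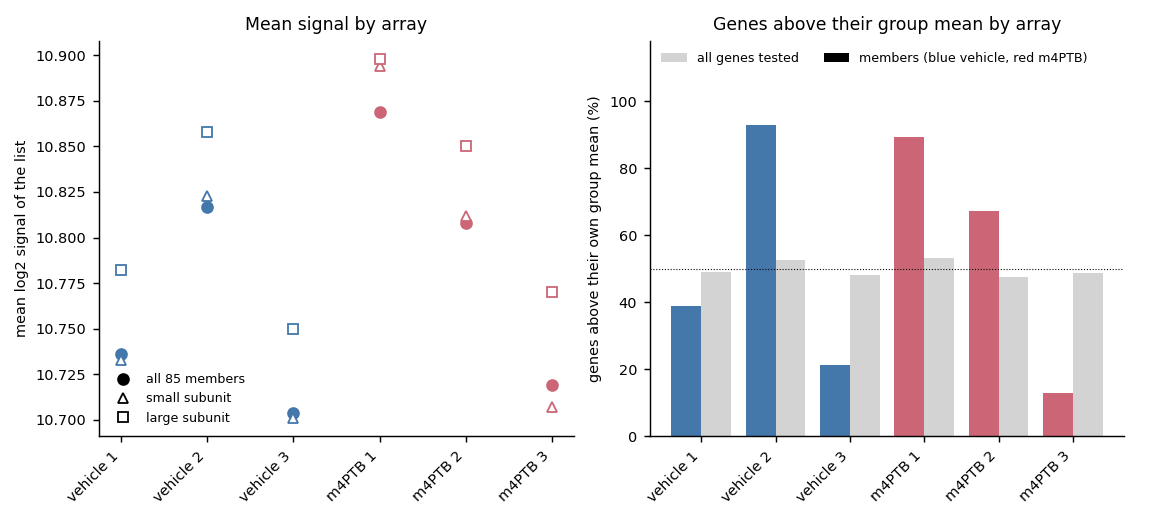
Left, mean log2 signal of all 85 members, of the small and of the large subunit genes on each of the 6 arrays (blue vehicle, red m4PTB). Right, the percentage of members (coloured bars) and of all genes tested (grey bars) that lay above their own group's mean on each array, with a dotted line at 50%. The members swing between 12.9% and 92.9% while all genes stay between 47.4% and 53.1%.

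No ribosomal protein gene differed between m4PTB and vehicle kidneys beyond the test's threshold. By limma with Benjamini-Hochberg adjustment over all genes, 0 of 85 members had an adjusted p under 0.05 (smallest 0.584), against 0.0% of all genes tested. At an unadjusted p under 0.05, 3 members were higher (3.53%, against 4.68% of all genes) and 0 were lower (against 2.56% of all genes). The 3 m4PTB values lay wholly above the 3 vehicle values for 12 members (14.1%, against 9.39% of all genes) and wholly below them for 1 member (1.18%, against 5.22%). With the array medians subtracted these counts were 5 and 4, and under cyclic loess 11 and 0. The 95% interval of the difference lay within 1.5-fold either way for 85 of 85 members, against 94.4% of all genes. Over the members the lowest interval end was -0.58 and the highest was 0.53, and the median interval reached 0.19 to either side of the difference. The members' spread within groups, a median residual SD of 0.091, was below that of all genes (0.111) and above that of other genes of like signal (0.081).

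**Figure D2:**
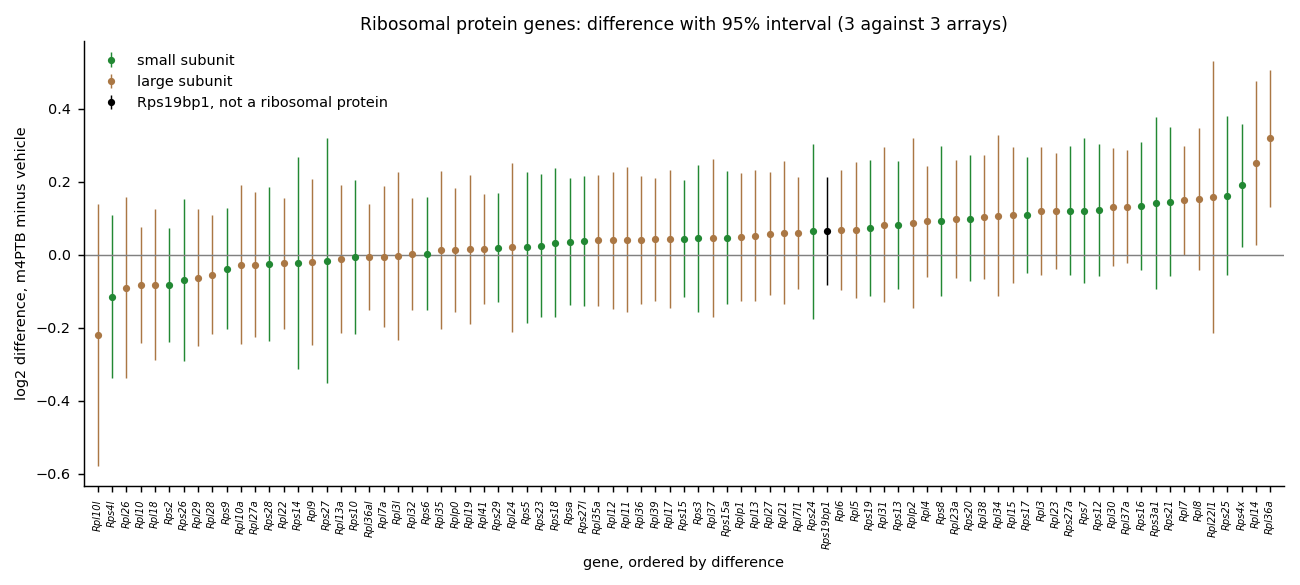
Log2 difference of the members, m4PTB minus vehicle, ordered by size (2 of the 85 are not reported here and not drawn), with its 95% interval from limma (3 against 3 arrays). Green marks small subunit genes, brown large subunit genes and black Rps19bp1. The differences run from -0.22 (Rpl10l) to 0.32 (Rpl36a), and the intervals of Rpl36a, Rps4x and Rpl14 alone lie off 0.

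The member that stood furthest above 0 was Rpl36a, an X-linked large subunit gene whose protein lines the exit site of the spent transfer RNA. Its signal was 11.04, 11.06 and 10.92 in vehicle kidneys and 11.27, 11.26 and 11.45 in m4PTB kidneys. All 3 m4PTB values were above all vehicle values, and the groups did not overlap. The log2 difference was 0.32 (standard error 0.08, a ratio of 1.25-fold, adjusted p of 0.584 by limma). It stayed between 0.26 and 0.35 under every alternative run, and the log2 differences of its other probe sets were 0.24 and 0.27. Its autosomal copy Rpl36al, which encodes a nearly identical protein, was at 11.06, 11.01 and 11.03 in vehicle kidneys and 11.02, 11.06 and 11.00 in m4PTB kidneys. These values overlapped, with a log2 difference of -0.01 and a 95% interval from -0.15 to 0.14. The interval of Rpl36a ran from 0.13 to 0.51, and the difference between the 2 genes was not tested.

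Rps4x, the X-linked gene of a small subunit protein, was at 10.57, 10.63 and 10.45 in vehicle kidneys and 10.73, 10.73 and 10.76 in m4PTB kidneys. The groups did not overlap and the m4PTB arrays lay close together, with a log2 difference of 0.19 (standard error 0.07, adjusted p of 0.678 by limma). The 5 probe sets of Rps4x had log2 differences from 0.14 to 0.22, each without overlap between groups. The related gene Rps4l, listed in the file under an older symbol, was dim, at 7.33, 7.21 and 7.25 in vehicle kidneys and 7.24, 6.95 and 7.25 in m4PTB kidneys. Its groups overlapped, with a log2 difference of -0.12.

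Rpl14, a large subunit gene, was at 7.28, 7.34 and 7.06 in vehicle kidneys and 7.60, 7.44 and 7.39 in m4PTB kidneys. The groups did not overlap, with a log2 difference of 0.25 (standard error 0.10, adjusted p of 0.678 by limma). This value rested on a dim probe set, below the negative controls' 90th percentile on all 6 arrays, and the other probe set of Rpl14 had a log2 difference of -0.08. The mean of both gave 0.085, and the difference was 0.17 without vehicle replicate 3.

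The next members by p, Rpl7, Rpl37a, Rpl30 and Rpl8, were of the large subunit, followed by Rps16 of the small subunit. Rpl7 was at 10.67, 10.67 and 10.60 in vehicle kidneys and 10.81, 10.76 and 10.82 in m4PTB kidneys. The groups did not overlap on any of its 4 probe sets, and the log2 difference was 0.15 (standard error 0.07, unadjusted p of 0.051 and adjusted p of 0.684 by limma). Rpl7l1, a related gene, was at 9.93 ± 0.04 and 9.99 ± 0.05 (SD, n = 3) and its groups overlapped. Rpl37a was at 11.45, 11.52 and 11.46 in vehicle kidneys and 11.66, 11.62 and 11.55 in m4PTB kidneys, and Rpl30 at 7.97, 8.05 and 7.89 and at 8.11, 8.09 and 8.10. Both were without overlap on the probe set used, each with a log2 difference of 0.13. For Rpl37a 2 of 4 probe sets were without overlap, and the 4 had differences from 0.048 to 0.131. Rpl8 (0.15) and Rps16 (0.13), the genes of proteins that reach toward the centre where peptide bonds form and toward the transfer RNA site, had overlapping groups, and Rpl8 was at 0.083 without vehicle replicate 3.

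**Figure D3:**
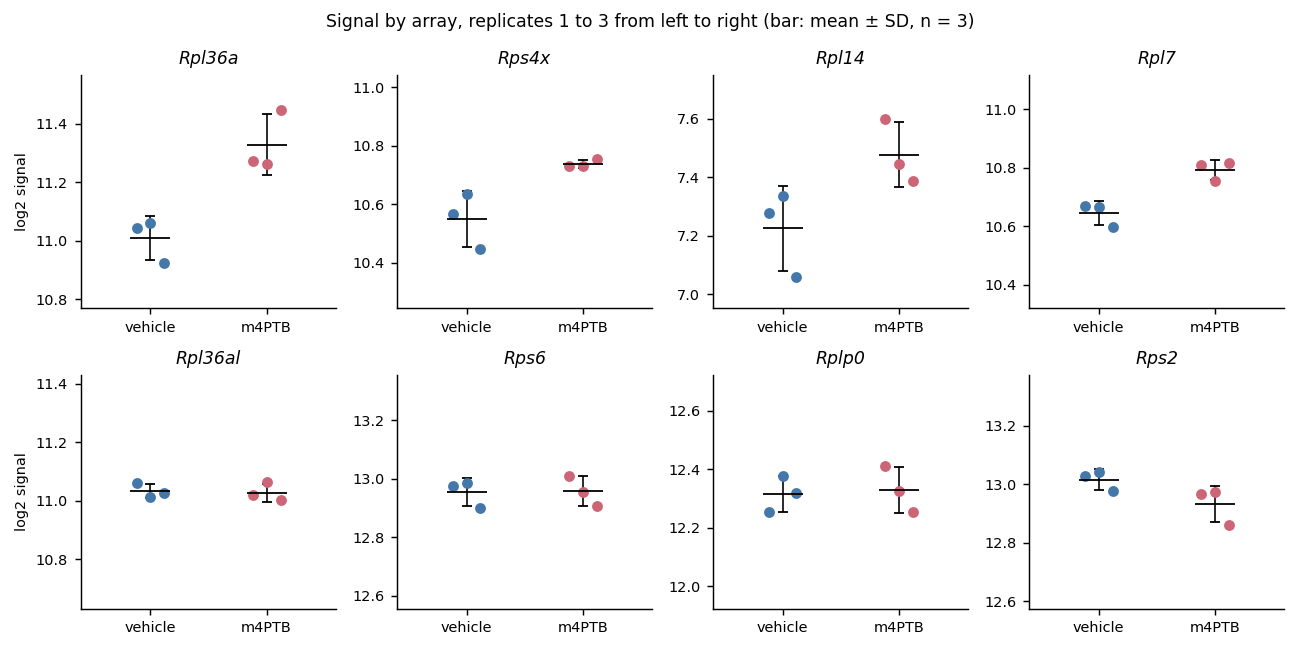
Log2 signal of 8 members on each array, vehicle in blue and m4PTB in red, with replicates 1 to 3 from left to right in each group and a bar for the mean ± SD (n = 3). Each panel spans 0.8 log2 units. Rpl36a, Rps4x, Rpl14 and Rpl7 show m4PTB values above all vehicle values, Rpl36al, Rps6 and Rplp0 overlap, and Rps2 shows m4PTB values below all vehicle values.

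Rps21 (log2 difference 0.15), Rpl38, Rps20, Rpl23a and Rpl4 also had all m4PTB values above all vehicle values, as did Rps19bp1 (0.065), which is no ribosomal protein. For Rps21 the highest vehicle and lowest m4PTB values nearly touched, at 9.242 and 9.243. Its other probe set had overlapping groups and a log2 difference of 0.08. Rpl38, whose protein is known in mice for the translation of Hox mRNAs, was at 11.44, 11.42 and 11.27 in vehicle kidneys and 11.48, 11.45 and 11.51 in m4PTB kidneys. The gap was narrow, and the log2 difference was 0.10 on the probe set used, with none of its 4 probe sets overlapping, and 0.050 without vehicle replicate 3. Rpl4 and Rpl23a, both of the tunnel through which the new peptide leaves, differed by 0.09 and 0.10, and 12 of 14 probe sets of Rpl23a were without overlap.

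Rps2, whose small subunit protein sits at the entry of the mRNA channel, was the member with all m4PTB values below all vehicle values. It was at 13.03, 13.04 and 12.98 in vehicle kidneys and 12.97, 12.97 and 12.86 in m4PTB kidneys. The lowest vehicle and highest m4PTB value nearly touched, the log2 difference was -0.08 (standard error 0.07, adjusted p of 0.738 by limma), and 14 of its 18 probe sets were without overlap in that direction. Without m4PTB replicate 3 the difference was -0.046. Other members below 0 overlapped between groups. Rpl10, which joins the large subunit late in its maturation, differed by -0.08, Rpl18 by -0.08, Rpl26 by -0.09 and Rps26 by -0.07. For each of these the lowest of the 6 values was m4PTB replicate 3, at 12.27 for Rpl10, 11.84 for Rpl18, 8.74 for Rpl26 and 11.35 for Rps26. Without that array the differences were -0.045 for Rpl10, -0.009 for Rpl18, -0.029 for Rpl26 and 0.026 for Rps26, the last with its sign turned.

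Sets of members by role had median log2 differences from -0.004 (paralogs) to 0.064 (the listed genes of Diamond-Blackfan anemia). The stalk proteins Rplp0, Rplp1 and Rplp2 recruit elongation factors to the large subunit. Rplp0 was at 12.25, 12.38 and 12.32 in vehicle kidneys and 12.41, 12.33 and 12.26 in m4PTB kidneys. The groups overlapped and differed by 0.01 on the log2 scale. Rplp1 differed by 0.05 and Rplp2, on a dim probe set, by 0.09. Rpl5 and Rpl11 form a particle with 5S ribosomal RNA that, when not built into ribosomes, binds Mdm2 and stabilises p53. They differed by 0.07 and 0.04, both with overlapping groups. Of 8 exit tunnel genes 7 were above 0, with a median of 0.042, and Rpl39 differed by 0.04.

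Rps6, the substrate of the S6 kinases downstream of mTORC1, was at 12.98, 12.99 and 12.90 in vehicle kidneys and 13.01, 12.96 and 12.91 in m4PTB kidneys. The groups overlapped almost wholly, and the log2 difference was 0.003 with a 95% interval from -0.15 to 0.16. Rps3 at the mRNA entry differed by 0.05 and Rpsa, also known as the laminin receptor, by 0.04. Rps25, which some viral and cellular mRNAs need for internal initiation, was at 11.18, 11.22 and 10.94 in vehicle kidneys and 11.37, 11.26 and 11.20 in m4PTB kidneys. Its groups overlapped, with a log2 difference of 0.16 that was 0.075 without vehicle replicate 3. Rpl3, close to the centre of peptide bond formation, differed by 0.12, while Rpl13a differed by -0.01 and Rpl10a by -0.03.

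A list of 9 genes mutated in Diamond-Blackfan anemia, a human failure of red cell production, had 7 above 0 and a median log2 difference of 0.064. The list was chosen after the values were seen and does not hold every gene reported in this anemia. Rps19, the gene most often mutated in it, was at 10.18, 10.36 and 10.26 in vehicle kidneys and 10.45, 10.31 and 10.27 in m4PTB kidneys, with overlapping groups and a difference of 0.07.

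The paralog genes lay on both sides of 0. Of 7 measured paralog genes 3 were above 0, with a median of -0.004, and 3 of 7 lay above the negative controls' 90th percentile on at least 3 arrays. Rpl22l1, a gene that the Rpl22 protein holds down in mouse cells, was at 6.57, 6.96 and 6.26 in vehicle kidneys and 6.73, 6.69 and 6.84 in m4PTB kidneys. Its groups overlapped, and its difference of 0.16 ranged from -0.04 to 0.34 over the alternatives, while Rpl22 differed by -0.02. Rps27l, a target of p53, differed by 0.04 and Rps27 by -0.02, with Rps27 spread from 9.10 to 9.73 over the m4PTB arrays and from 9.41 to 9.50 over the vehicle arrays. Rpl10l, known from testis, and Rpl3l, known from muscle, had mean signals of 5.26 and 5.31 over the 6 arrays, against negative control medians of 5.56 to 5.95. Rpl10l had the lowest difference of all members, -0.22, with its highest value of 5.73 on vehicle replicate 3, and a difference of -0.042 without that array.

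Many members were measured by several probe sets, since ribosomal protein genes have many processed pseudogenes and probes for the copies can take up the same transcripts. In all, 68 members had more than 1 probe set past the filter and Rpl21 had 30. All probe sets pointed up in 35 of them, all pointed down in 11, and 22 held both signs. The range of log2 differences between the probe sets of a member had a median of 0.058 and was widest for Rpl14, at 0.33. Probe sets of a gene are therefore not independent measurements. Over all 427 probe sets, 279 were above 0 and the median was 0.033. Of the 30 probe sets of Rpl21, 2 were above 0, among them the brightest, which stood for the gene at 0.060.

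**Figure D4:**
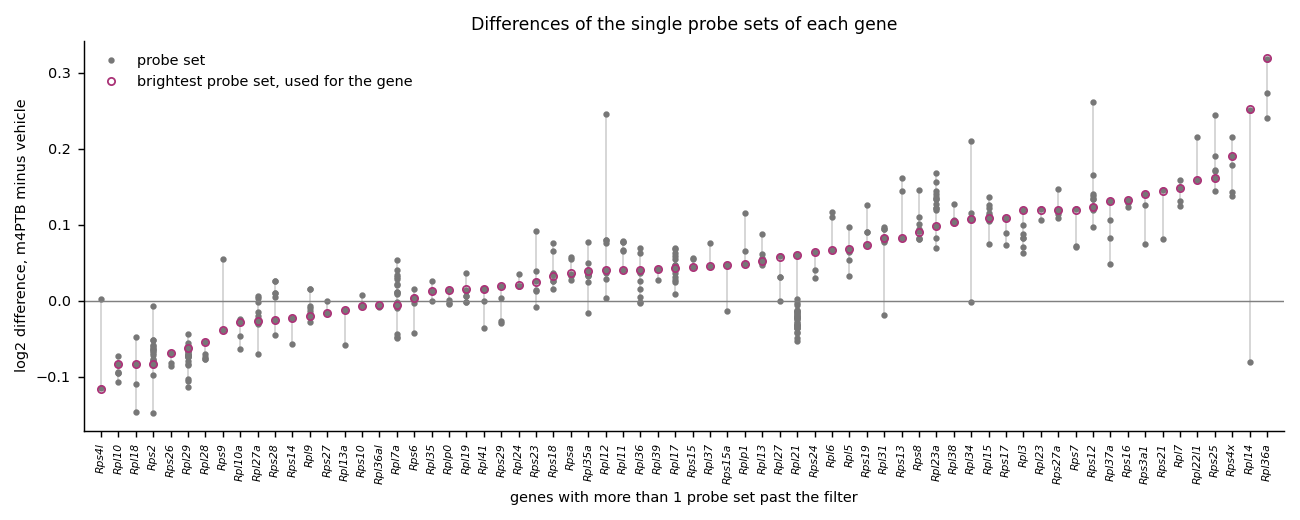
Log2 difference, m4PTB minus vehicle, of every probe set of the 68 members with more than 1 probe set past the filter (grey points), with the brightest probe set that stands for the gene circled. Genes are ordered by the circled value. The probe sets of Rpl36a and Rps4x lie together above 0, whereas those of Rpl14 lie on either side of 0.

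Rps27a, which encodes ubiquitin fused to a small subunit protein, was at 9.57, 9.59 and 9.50 in vehicle kidneys and 9.77, 9.69 and 9.57 in m4PTB kidneys. The groups overlapped, with a log2 difference of 0.12. The symbol rule leaves out ribosomal protein genes with other names. Among these Fau, a ubiquitin-like fusion of a small subunit protein, differed by 0.02 and Rack1, a scaffold on the small subunit, by 0.11, both with overlap.

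Small nucleolar RNAs guide the modification of ribosomal RNA, and many are cut from introns of ribosomal protein genes. Of 44 listed as known from such introns, 20 were measured. Above 0 were 19 of these 20 (against 54.5% of all genes), with a median log2 difference of 0.15. Signals passed the negative controls' 90th percentile on at least 3 arrays for 12 of the 20. At an unadjusted p under 0.05, 6 were higher and 0 lower, against 4.68% and 2.56% of all genes, and 0 had an adjusted p under 0.05. Snord73b was at 8.92, 9.09 and 8.91 in vehicle kidneys and 9.79, 9.52 and 9.72 in m4PTB kidneys. The groups were far apart, with a log2 difference of 0.70 (standard error 0.09, adjusted p of 0.493 by limma). Its host gene Rps3a1 was at 10.40, 10.47 and 10.21 and at 10.64, 10.51 and 10.35, a difference of 0.14 with overlapping groups. Snord73a, from the same host, also had 0.14 with overlap, on a dim probe set (mean signal 5.03). Snord35a had a difference of 0.27 without overlap, while its host Rpl13a had -0.01 with overlap. Of the other snoRNAs known from Rpl13a, Snord33 had 0.145 without overlap. Snord34 had 0.07 and Snord32a had -0.1, both with overlap. Without vehicle replicate 3 the median over the 20 was 0.197, with 18 above 0. Leaving out m4PTB replicate 1 lowered this median to 0.122, with 16 above 0. Cyclic loess gave a median of 0.165 and the subtraction of array medians gave 0.091, both with 18 above 0. Snord73b ranged from 0.61 to 0.78 over the alternatives. The difference between a snoRNA and its host was not tested.

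Lists of genes that build or serve ribosomes also had medians above 0, with 0 adjusted p-values under 0.05 in any of them. Of 69 ribosome assembly and nucleolar genes 61 were above 0 (median 0.107), and 5 were higher and 0 lower at an unadjusted p under 0.05, against 4.68% and 2.56% of all genes. Nop2, an RNA methyltransferase of the nucleolus, was at 8.26 and 8.48 on average, a difference of 0.22. Of 28 genes of RNA polymerases I and III 21 were above 0 (median 0.106), including Ubtf, the factor that opens ribosomal DNA for polymerase I, with a difference of 0.20 and no overlap. The 23 elongation factors and other TOP mRNA genes had a median of 0.081, with Hnrnpa1 at 0.31 and Gas5, a host of small nucleolar RNAs, at 0.20. The 29 initiation factors had a median of 0.055. Eif4ebp2, a translational repressor that mTORC1 phosphorylates, was at 10.25, 10.27 and 10.29 in vehicle kidneys and 10.05, 10.14 and 10.12 in m4PTB kidneys, a difference of -0.17 with no overlap and an adjusted p of 0.678 by limma. The 20 regulators of the mTORC1 and MYC pathways had a median of 0.054. The 77 mitochondrial ribosomal protein genes were split, 39 above and 38 below 0, with a median of 0.001. Without vehicle replicate 3 the median was 0.038 for ribosome assembly, 0.078 for the polymerases, 0.048 for elongation and TOP genes, 0.009 for initiation factors, 0.034 for the mTORC1 and MYC regulators and -0.017 for the mitochondrial genes (28 of 77 above 0). Under cyclic loess it was 0.070, 0.071, 0.051, 0.040, 0.008 and -0.039 in that order. With the common shift of subtracted array medians, the list medians at 0.055 and below lay under 0.

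The cell division list had a median log2 difference of 0.68, with 20 of 20 genes above 0, and thus lay far above the ribosomal protein genes on the same arrays. It was 0.55 without vehicle replicate 3. Among other lists, 10 of 12 p53 targets were above 0 (median 0.111), 7 of 7 macrophage markers (median 0.17) and 3 of 3 fibroblast markers (median 0.14). Their medians were 0.045, 0.015 and 0.028 without vehicle replicate 3. Below 0 were 2 of 2 loop of Henle markers (median -0.15) and 2 of 2 collecting duct markers (median -0.11). Proximal tubule markers were split, 3 of 6 above 0 (median -0.023). For 3 of these 6 all m4PTB values lay below all vehicle values, against 5.22% of all genes. Endothelial markers were above 0 in 3 of 3 (median 0.187, and 0.114 without vehicle replicate 3). Hepatocyte markers were below 0 in 3 of 3 (median -0.33, and -0.187 without that array). Signals passed the negative controls' 90th percentile on at least 3 arrays for 1 of 3 hepatocyte and 4 of 7 macrophage markers. Without vehicle replicate 3, 5 of 7 macrophage, 2 of 3 fibroblast, 2 of 3 endothelial and 1 of 3 hepatocyte markers were above 0. The macrophage list mean ran from 7.72 to 8.12 over the vehicle arrays and from 7.92 to 8.18 over the m4PTB arrays. The part of these cell type lists in the members' values was not tested.

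**Figure D5:**
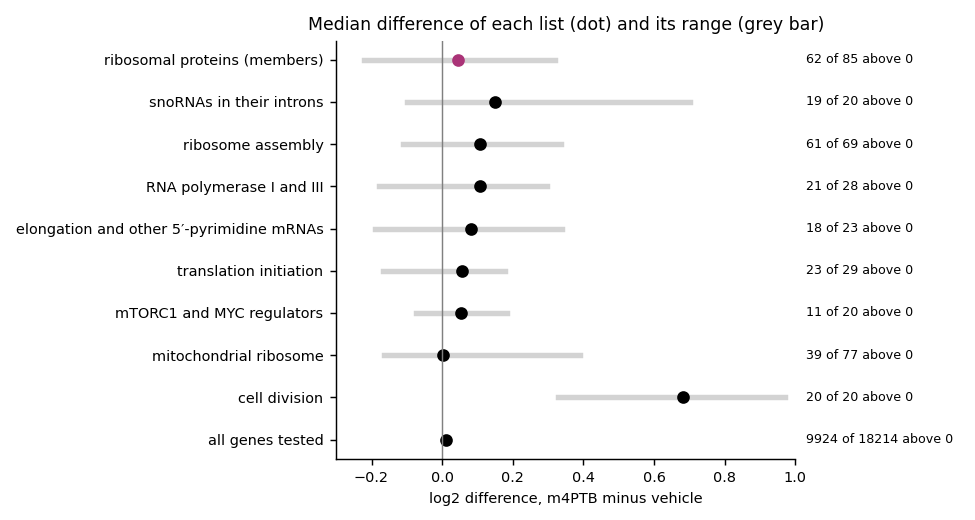
Median log2 difference, m4PTB minus vehicle, of the ribosomal protein genes, of related gene lists and of all genes tested (dots), with the lowest to highest gene of each list (grey bars, not drawn for all genes) and the number of genes above 0. The ribosomal protein genes lie at 0.044, next to 0.012 for all genes, 0.107 for ribosome assembly and 0.68 for cell division.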

How the data were processed

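The authors deposited a log2 signal for each probe set. The submitters' processing notes name RMA and Affymetrix Expression Console 1.1. RMA as usually run includes quantile normalization, which hides a common shift of most genes. Samples were grouped and numbered per the labels' titles. A further 6 columns of signals, whose names match no sample, were not used. Gene symbols came from the deposited annotation and were updated by accession through RefSeq's table for GRCm38.p6. The build of the array annotation (NCBIM37) differs, so no gene coordinates are given beside those of the promoter windows. Rpl and Rps genes were counted by the deposited symbols and named by the updated ones.

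A probe set entered the tests where it had 1 symbol and reached a log2 signal of 5 on 3 or more arrays, and the one of highest mean stood for its gene. The difference, m4PTB minus vehicle, came from limma 3.58.1 in R 4.3.3 (lmFit, eBayes, no covariate), with p-values adjusted by Benjamini-Hochberg over 18214 genes. The limma fit was tested on simulated data with independent noise. The filter, the choice of probe set and the list medians were not tested in this way. The number of arrays limits the precision.

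The members and lists were chosen with earlier results of these data known. Named members are the 8 of smallest p in each direction, the 3 brightest and 3 dimmest, a list of members with known roles, and up to 3 genes of smallest p per related list, of which not all are printed. Some genes are not reported here. The related lists were also recomputed under other scalings and without single arrays, alternatives chosen after seeing the data. Rps21, Rpl23a, Rpl4, Rps20, Rpl21, Rpl35 and Rps3a1, the role groups and the promoter words were chosen after their values were seen. Alternatives were other filters, scalings, weights, priors and probe set rules, and leaving out each array.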

Additional observations from a re-analysis of the deposited data

How the results depend on the processing

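Under every alternative run, 0 members and 0 of all genes had an adjusted p under 0.05, as with all arrays. The count of members with an unadjusted p under 0.05, which was 3, was 1 with each array's median subtracted, 5 with a trended and robust prior, 1 with the mean of all probe sets of a gene, and 1 to 4 when single arrays were left out. It was 8 of 427 when each probe set was tested singly, an alternative chosen after seeing the data. The count of members without overlap between groups, which was 13, was 58 of 427 by single probe sets and ran from 13 to 33 when single arrays were left out, where fewer arrays are easier to separate. The median difference ran from 0.007 to 0.090 when single arrays were left out, from -0.013 to 0.045 over the other settings, and was 0.028 with array weights. Subtracting array medians moves all genes alike, so the 25 of 85 members that changed sign under it lay within that common shift of 0. Otherwise 18 changed sign without m4PTB replicate 1, 14 with array weights, 14 without vehicle replicate 3 and 0 with another filter on dim probe sets. Over all genes tested, the deviations of same-numbered samples had correlations of -0.13, -0.05 and -0.08. The labels do not say whether the numbers pair samples. These correlations cannot settle it, since noise in single genes also lowers them. With a replicate block, 2 members had an unadjusted p under 0.05, 0 were called and the median stayed at 0.044. Members measured by dim probe sets, 7 of 85 below the negative controls' 90th percentile on all arrays, are measured close to background, and probes shared with pseudogenes can mix copies.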
